A study of Mus musculus with 4 samples.

Results

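M4.GABA is a small population of inhibitory neurons in a single-nucleus RNA atlas of the mouse mediobasal hypothalamus, the ventral hypothalamic region around the arcuate nucleus. Its members are the nuclei to which the authors' deposited table gives a neuron population beginning with M4, which were 263 of 23261 annotated neurons and of 36523 annotated nuclei. All mice were wild type and had free access to chow. One group received saline and the other insulin before the hypothalamus was dissected and nuclei were sorted for droplet-based sequencing of the 3' ends of poly(A) RNA. The sources used here give no dose, route, time after treatment, age or number of mice per library. Of the 4 libraries, 2 were Saline and 2 Insulin, and each of the sequencing runs 230 and 232 held 1 of each.

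GABA neurons make the inhibitory transmitter GABA from glutamate with the glutamic acid decarboxylases, encoded by Gad1 and Gad2, and load it into vesicles with the transporter encoded by Slc32a1. In the mediobasal hypothalamus such neurons are diverse: some release feeding peptides, and others act locally on neighbouring neurons. Immediate early genes, such as Fos, Junb and Nr4a1, are transcribed within minutes of strong stimulation of a neuron and are widely used as a trace of recent activity.

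The libraries contained 93 (Saline run 230), 60 (Insulin run 230), 46 (Saline run 232) and 64 (Insulin run 232) members, with 886466, 682118, 510403 and 577605 UMIs, where a UMI stands for 1 counted RNA molecule. Median UMIs per nucleus were 8918 in M4.GABA and 8441 in the other neurons. The runs also differed in sex: Xist, the female X-silencing transcript, was at 0 counts per 1000000 UMIs of the same nuclei (CPM) in both libraries of run 230 and reached 1027 and 1413 CPM in run 232. Uty, a Y-linked gene, reached 141 and 151 CPM in run 230 and was at 0 CPM in run 232. Run and sex therefore cannot be told apart, and each group's SD includes both. Across all annotated nuclei 318 barcode sequences occurred in more than 1 library, but no barcode was shared among members.

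The share of neurons that were M4.GABA did not separate the treatments. It was 1.46% in Saline run 230 (95% Clopper-Pearson interval 1.18 to 1.79%), 0.864% in Saline run 232 (0.633 to 1.15%), 1.10% in Insulin run 230 (0.842 to 1.42%) and 1.04% in Insulin run 232 (0.806 to 1.33%). Both Insulin libraries lay between the Saline libraries. The means were 1.16 ± 0.422% (SD, n = 2) and 1.07 ± 0.0405% (SD, n = 2), with a two-sided exact permutation p of 1, where 2 against 2 libraries cannot give less than 0.33. These intervals cover counting error only.

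The name of the population fits its transmitter genes. Gad2 was at 239 and 212 CPM in the Saline libraries (runs 230 and 232) and at 224 and 346 CPM in the Insulin libraries, against a mean of 131 CPM in the other populations. Gad1 was at 86.9, 84.2, 68.9 and 166 CPM in the same order, and Slc32a1 at 20.3, 52.9, 46.9 and 60.6 CPM. Among 35 populations with at least 10 nuclei in every library, M4.GABA ranked seventh for Gad2, ninth for Gad1 and 13th for Slc32a1. Slc17a6, the vesicular transporter of hypothalamic glutamate neurons, was at 9.76 ± 6.22 CPM (SD, n = 4) against 75.8 CPM in the others. In single nuclei, 75.7% of members had a Gad2 UMI, and 41.2% did after each nucleus was thinned to 3000 UMIs. In M28.Tac2, a population with high Slc17a6 and a median of 7552 UMIs, those shares were 19.7% and 9.84%, the background of free RNA included. Markers of other cell types were low: the summed level of 6 astrocyte markers was 36.1 to 70.5 CPM in the Saline and 46.9 to 60.6 CPM in the Insulin libraries, against 6864 CPM in astrocytes. Those of 5 oligodendrocyte markers were 117 to 131 and 107 to 114 CPM, against 11281 CPM in oligodendrocytes. The 4 microglia markers summed to 64.7 to 124 CPM in the Saline and 38.1 to 79.2 CPM in the Insulin libraries, against 1807 CPM in microglia and 73.1 to 147 CPM over all neurons. The 5 endothelial and mural markers, with Cldn5 at 0, were at 5.64 to 7.84 CPM in the Saline libraries. They were at 13.2 to 15.6 CPM in the Insulin libraries, against 307 CPM in endothelial cells, with mural cells left out. These last did not overlap between the treatments, and the part of such markers in the gene results was not tested.

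The genes whose levels set M4.GABA furthest apart were of mixed function, led by the matrix protein gene Abi3bp, and the receptor genes Calcrl and Tacr1 were among them. Because the authors clustered the nuclei on these genes, the differences are a description and carry no test. Of 7953 genes at 20 CPM or more in M4.GABA or in the mean of the other 34 populations, 283 (3.56%) were higher in M4.GABA by at least 1 on the log2 scale, with 1 CPM added, and 489 (6.15%) were lower. M4.GABA had the highest level of all populations for 404 genes (5.08%) and the lowest for 995 (12.5%). By the number of genes lower it was the third of the 35 populations, and by the number higher the fifth. By genes lower, M3.Pmch and M24.Avp/Oxt were above it, with 110 and 153 nuclei against its 263. By genes higher, both of these, M1.GABA (168 nuclei) and M26.Agrp (610 nuclei) were above it. The part of the number of nuclei in these places was not tested.

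**Figure D1:**
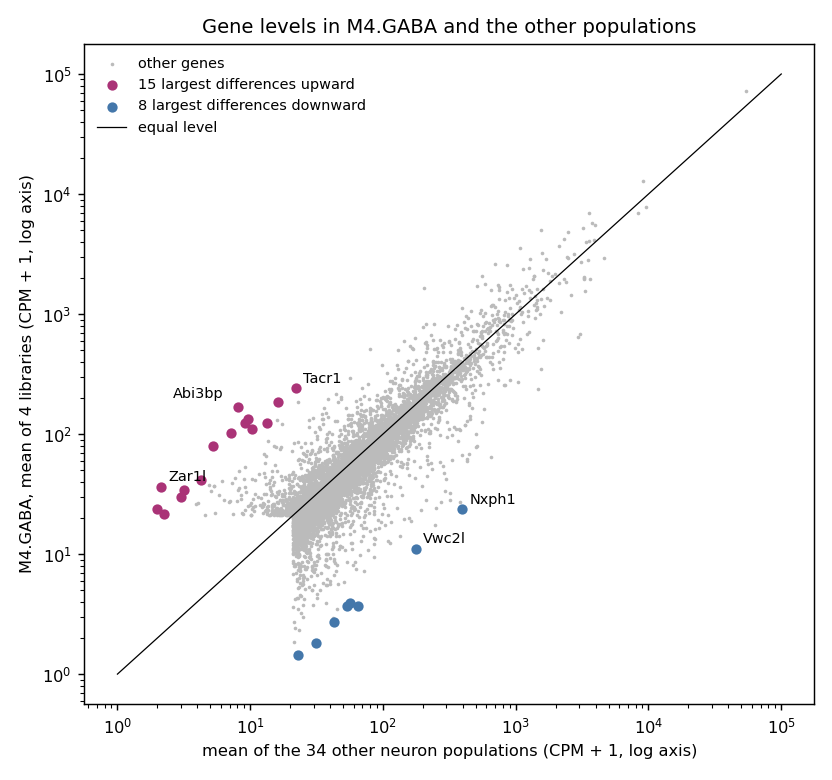
Each point is 1 gene, with its mean level in M4.GABA (4 libraries) against the mean of the other 34 populations, both as CPM + 1 on log axes. The 15 largest upward differences lie far above the line of equal levels, with Tacr1 and Abi3bp the highest among the labelled ones, and the 8 largest downward differences lie far below it.

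Abi3bp, which encodes a matrix protein (GRCm38 chromosome 16, 56477878 to 56690135), had the largest difference. It was at 205 and 212 CPM in the Saline and at 113 and 140 CPM in the Insulin libraries, and the mean of the other populations was 7.12 CPM (log2 difference 4.38). Every M4.GABA library was above every library of the other populations, of which the highest was at 23.6 CPM. Next came Zar1l (35.5 ± 12.2 CPM against 1.12), 6430628N08Rik (78.9 ± 13.7 against 4.24), Crispld1 (101 ± 16.1 against 6.19) and Calcrl. The genes whose level over the 35 populations was most like that of Abi3bp were Exoc2 (Pearson r = 0.777), Baz1a (r = 0.751) and Zfp1 (r = 0.727), as a description in which M4.GABA itself is the point that stands out.

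Among receptors, Tacr1, which encodes the substance P receptor (chromosome 6, 82402334 to 82560104), was at 287 and 270 CPM in the Saline and at 189 and 209 CPM in the Insulin libraries. The other populations averaged 21.02 CPM (log2 difference 3.45), and the next highest, M36.Sst/Pnoc, was at 103 ± 14.2 CPM. Calcrl encodes the receptor of calcitonin gene-related peptide (CGRP) and adrenomedullin, whose ligand choice is set by a partner of the RAMP family. It was at 165, 125, 135 and 106 CPM in Saline run 230, Saline run 232, Insulin run 230 and Insulin run 232, against 8.55 CPM in the others (log2 difference 3.81). Of the partners, Ramp1, which makes the CGRP receptor with Calcrl, was at 38.4 ± 14.05 CPM, the highest of all populations, while Ramp2 and Ramp3 had 1 UMI each over the 4 libraries. Pth2r, a parathyroid hormone family receptor, was at 109 ± 32.6 CPM, second to M36.Sst/Pnoc at 129 CPM.

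The rest of the 15 genes with the largest upward differences included a transcription factor and a kinase. Bcl11b, a zinc finger transcription factor of striatal and cortical neurons, was at 185 ± 14.9 CPM against 15.2 (log2 3.53), although M7.Ust came close at 161 CPM. Ptk2b, a calcium-responsive tyrosine kinase, was at 123 ± 21.08 CPM against 12.4. Dnah11 was at 123 ± 34.04 CPM against 8.19, and Crym, a thyroid hormone binding protein gene, at 33.2 ± 3.52 CPM against 2.17. Clic6, Gm45282, Echdc2 and Baz1a completed the set at 28.6, 20.7, 40.06 and 22.7 CPM. Baz1a ranged from 3.92 to 55.4 CPM over the libraries and so was not above all other populations in each of them.

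In the downward direction, Nxph1, a secreted ligand of neurexins, was at 22.5 ± 11.5 CPM against 395 in the other populations (log2 difference -4.07). Vwc2l was at 10.05 ± 8.46 CPM against 175, Kcnh8, a potassium channel gene, at 2.73 ± 1.93 CPM against 64.1, and Ebf1 at 2.88 ± 4.68 CPM against 55.2. The long noncoding or predicted genes 2700069I18Rik, Gm12236, Lncbate1 and Gm29683 had 2, 1, 5 and 8 UMIs in all. Ebf1 is not low in M4.GABA alone: 10 populations were lower, and its mean in the others is carried by M33.Glp1r/Ebf1 at 1208 CPM.

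**Figure D2:**
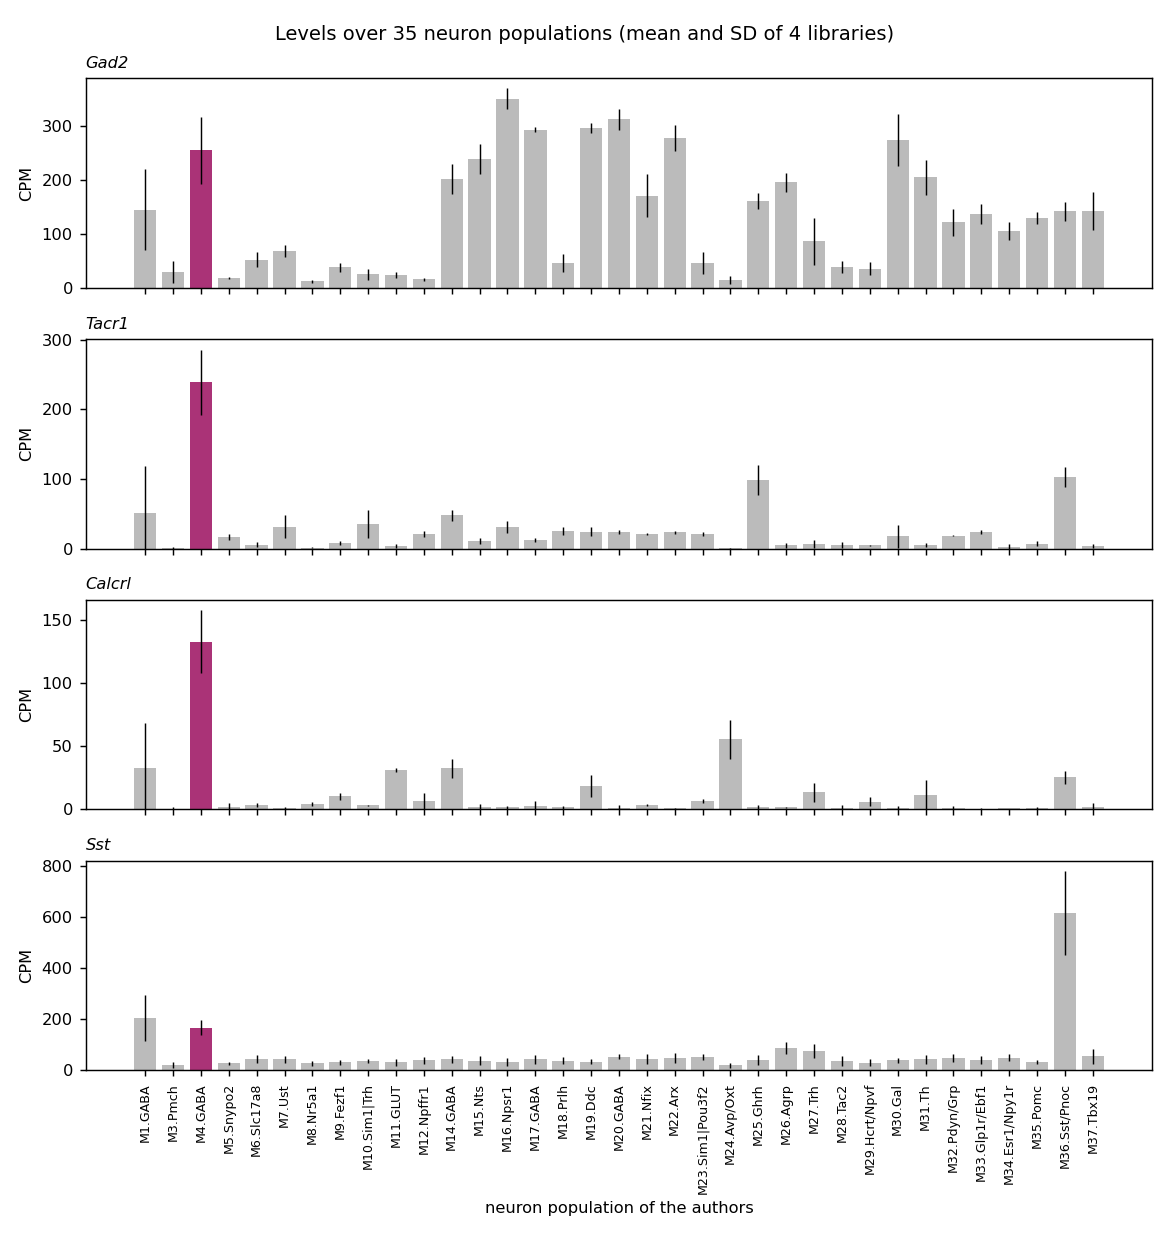
Bars give the mean level in CPM over 4 libraries in each of 35 neuron populations, with error bars of 1 SD and M4.GABA in purple. Gad2 is shared by many populations, Tacr1 and Calcrl are highest in M4.GABA (239 and 133 CPM), and Sst is the third highest there after M36.Sst/Pnoc and M1.GABA.

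Of 38 neuropeptide genes, 13 reached 20 CPM, and 1, Sst, was higher than the others by 1 or more on the log2 scale. Sst, which encodes the inhibitory peptide somatostatin, was at 155 and 161 CPM in the Saline and at 142 and 209 CPM in the Insulin libraries, against 63.2 CPM in the others and 615 CPM in M36.Sst/Pnoc. A Sst UMI was found in 61.6% of members and, after thinning, in 30.2%; in M28.Tac2 these shares were 23.9% and 9.45%. Of the feeding peptide genes, Agrp was at 70.5 ± 18.3 CPM, 34th of 35, and Pomc at 21.7 ± 14.8 CPM against 63.7. The gene of the leptin receptor, Lepr, was at 2.50 ± 0.786 CPM, the lowest of all, against 44.04 CPM in the others and 473 CPM in M26.Agrp. Lepr is not low in M4.GABA alone: M6.Slc17a8 was at 3.77 ± 2.64 CPM. The mean of the others is carried largely by M26.Agrp and by M33.Glp1r/Ebf1 at 362 CPM.

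Of 88 patterning transcription factors, 31 reached 20 CPM, with 4 higher and 15 lower by log2 1 or more, and a median difference of -0.94 against -0.15 for all 7953 genes. Bcl11b, Otp (33.9 ± 9.41 CPM against 13.2), Six3 (45.6 ± 12.8 against 19.6) and Mef2c (279 ± 41.6 against 137) were the higher ones. Zfhx3, a large homeobox factor expressed widely in hypothalamic neurons, was at 63.8 ± 19.8 CPM, the lowest of 35 populations, which averaged 650.5 CPM. M27.Trh, at 67.02 ± 33.03 CPM, and M14.GABA, at 82.7 ± 30.5 CPM, overlapped it, so this low level was not particular to M4.GABA. Zfhx4, the paralogue of Zfhx3, was also lowest, at 11.5 ± 4.47 CPM against 113.

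Receptors for fast and slow transmitters also had extremes in M4.GABA. The AMPA receptor genes Gria2 and Gria3, the NMDA receptor gene Grin2b and the kainate receptor gene Grik5 were each highest of the 35 populations by mean. They were 4 of 21 glutamate receptor genes at 20 CPM or more, against 5.08% of all genes. Of the 34 other populations, 19 (Grik5), 27 (Gria2), 30 (Gria3) and 33 (Grin2b) were below every M4.GABA library, so these ranks lie partly within the spread of libraries. Gria3 was at 817 and 1027 CPM in the Saline and at 929 and 1094 CPM in the Insulin libraries, against 421 CPM in the others. Among 36 hormone, peptide and monoamine receptor genes at 20 CPM or more, 6 were highest in M4.GABA, against the same 5.08%. Besides Tacr1, they were Adra1a (194 ± 33.1 CPM against 47.4), Chrm1 (36.04 ± 3.26 against 4.32), Adrb1 (26.9 ± 2.98 against 6.10), Chrna7 (70.1 ± 25.9 against 31.3) and Sstr2 (32.7 ± 4.67 against 13.3). These encode adrenergic, acetylcholine and somatostatin receptors. Of the 34 other populations, 17 were below every M4.GABA library for Chrna7, 30 for Sstr2 and 33 for Adra1a. All 34 were for Tacr1, Chrm1 and Adrb1. Htr2c, a serotonin receptor gene of many hypothalamic neurons, was lowest, at 26.3 ± 10.3 CPM against 271. Among 22 GABA and glycine receptor and chloride transport genes, Glra3 was at 320 ± 45.8 CPM against 107, second of 35, whereas Glra1 and the chloride importer gene Slc12a2 were lowest.

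Potassium channel genes differed in both directions within 46 voltage-gated and leak channels. Kcnd3 was at 673 ± 99.7 CPM against 229 and was highest, while its paralogue Kcnd2, also a gene of the A-type current, was lowest at 1035 ± 110 CPM against 2196. Kcnq5, which encodes a subunit of the M-current, was at 2066 ± 146 CPM against 552. Kcnk2, a leak channel gene, was lowest at 27.4 ± 12.3 CPM against 211.

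Insulin acts through its receptor, encoded by Insr, and through the adaptor proteins Irs1, Irs2 and Irs4. Insr was at 131 and 108 CPM in the Saline and at 120 and 86.6 CPM in the Insulin libraries of M4.GABA, and the groups overlapped. Its mean, 111 ± 19.04 CPM, was 23rd of 35 populations, which averaged 120 CPM, and populations near it in this order do not differ beyond their SD. Irs1 was at 19.3 ± 3.43 CPM, the lowest, against 41.6, and Irs2 at 47.9 ± 13.8 CPM against 34.2. Irs4 was at 9.44 ± 2.04 CPM, from 11 UMIs or fewer in any library. Of 23 insulin signalling genes at 20 CPM or more, 6 were lowest in M4.GABA (against 12.5% of all genes), among them Irs1, Pik3ca, Rictor, Rps6kb1 and Grb10.

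By levels over 10250 genes, the populations most like M4.GABA were M14.GABA (Pearson r = 0.941), M7.Ust (r = 0.917) and M36.Sst/Pnoc (r = 0.915), as a description of these libraries. M14.GABA shared GABA markers (Gad2 UMI in 75.4% of nuclei, Slc32a1 in 32.3%) but had a Tacr1 UMI in 24.4% of nuclei against 74.5% in M4.GABA. For Abi3bp these shares were 7.65% and 46.8%, at median depths of 8522 and 8918 UMIs.

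The authors' second clustering, into conserved clusters, divided the members, and 31 of the 263 were in C30.GLUT. These 31 nuclei did not have the transmitter genes of that name. Their Gad2 was at 435 CPM and Slc32a1 at 81.4 CPM, against 253 and 42.2 CPM in the summed counts of all 263 members, and their Slc17a6 was at 14.2 CPM against 147 CPM in the other C30.GLUT nuclei. Of the genes that set M4.GABA apart, some were low in these nuclei: Abi3bp was at 7.08 CPM (2 UMIs) against 169 over all members, Calcrl at 24.8 against 137 and Bcl11b at 46.0 against 186. Others were less reduced or higher: Tacr1 was at 145 CPM against 242, with a UMI in 61.3% of these nuclei against 74.5% of all members, Ptk2b at 63.7 against 123, and Pth2r at 195 against 112. Sst was at 492 CPM against 164, Th, the gene of the enzyme that starts dopamine synthesis, at 95.6 against 11.7, and Rorb at 510 against 114. These contrasts were noticed in the data and, as contrasts between clusters, carry no test.

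The share of members in C30.GLUT was 7.53 and 8.70% in the Saline and 16.7 and 15.6% in the Insulin libraries (runs 230 and 232), from 4 to 10 nuclei per library. The means were 8.11 ± 0.826% and 16.1 ± 0.737% (SD, n = 2 each), with an exact permutation p of 0.33, the smallest possible here. The groups did not overlap. Outside M4.GABA, C30.GLUT held 188 and 111 nuclei in the Saline and 202 and 263 in the Insulin libraries. The other neurons numbered 6273 and 5280 in the Saline and 5384 and 6061 in the Insulin libraries, so a higher share was not particular to M4.GABA. The share of members was higher in both Insulin libraries. It is a value to hold beside each gene below that differs between these nuclei and the members as a whole. Its part in those gene results was not tested.

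Insulin and Saline were then compared gene by gene on the counts summed over members in each library. No gene passed: with edgeR's quasi-likelihood test and Benjamini-Hochberg adjustment, 0 of 8063 genes were called upward (0.0%) or downward (0.0%), with 289 at an unadjusted p under 0.05. DESeq2 also called 0, with 61 at an unadjusted p under 0.05, and the fit with the run as a block called 0, with 523. Both Insulin libraries were above both Saline libraries for 15.1% of the genes and below them for 16.7%. Leaving out 1 library at a time gave 6 calls without Saline run 230, 1 without Insulin run 230 (Junb), 70 without Saline run 232 and 6 without Insulin run 232; Xist, Uty and other sex-linked genes were among them.

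The smallest unadjusted p-values upward among named genes whose groups did not overlap were those of Pla2g6, Cartpt, Fam19a2, Mapk4, Rmst, Ubash3b, Igsf9b and Syt10. Cartpt, which encodes the peptide CART of hypothalamic feeding neurons, was at 14.7 and 37.2 CPM in the Saline and at 68.9 and 90.03 CPM in the Insulin libraries. Its fitted log2 change was 1.73 (SE 0.39, edgeR adjusted p = 1.00), and 1.11 without nuclei of more than 2 times the library's median UMIs. Of its 52 UMIs in Insulin run 232, 28 came from 1 nucleus, so the level in that library rests largely on it. Rmst, a long noncoding RNA gene, was at 28.2 and 62.7 CPM against 106 and 116 CPM, and without the high-UMI nuclei its log2 change was 0.48. Syt10, a synaptotagmin gene of regulated secretion, was at 4.51 and 3.92 CPM against 26.4 and 22.5 CPM, from 2 to 18 UMIs per library. Syt10 and Pla2g6 passed the filter on low counts only through the Insulin libraries, which favoured an upward direction for them.

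Downward, the 8 genes with the smallest p were Lrrn3, Nek10, Sphkap, Abi3bp, Galnt14, Flrt2, Pcsk2os2 and Chn2, with fitted log2 changes of -1.49 (Pcsk2os2) to -0.72 and adjusted p-values of 1.00. The value of Pcsk2os2 was -0.53 without Saline run 230. Lrrn3, a leucine-rich repeat membrane protein gene, was at 86.9 and 104 CPM in the Saline and at 52.8 and 43.3 CPM in the Insulin libraries. Abi3bp, the leading gene of the population, is in this set at log2 -0.72 (SE 0.21, edgeR adjusted p = 1.00), and at -0.39 without the high-UMI nuclei. It was nearly lacking in the C30.GLUT members, whose share was higher in the Insulin libraries. Nuclei with an Abi3bp UMI numbered 47 of 93 and 21 of 46 in the Saline and 30 of 60 and 25 of 64 in the Insulin libraries. In run 230 about the same share of nuclei thus had a UMI in both treatments, at 205 and 113 CPM.

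Immediate early genes were the list with the largest median difference. Their summed level over 30 genes was 331 and 308 CPM in the Saline libraries and 402 and 947 CPM in the Insulin libraries of runs 230 and 232. The groups did not overlap, but Insulin run 232 stood far above the other 3 libraries: the difference was 639 CPM within run 232 and 71.2 CPM within run 230. Means were 319 ± 16.2 and 674 ± 386 CPM (SD, n = 2 each), with an exact permutation p of 0.33, the smallest possible. By the mean over all 4 libraries M4.GABA ranked number 4 of 35 populations, after M27.Trh, M26.Agrp and M31.Th, and it had the same rank in the Saline libraries alone.

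**Figure D3:**
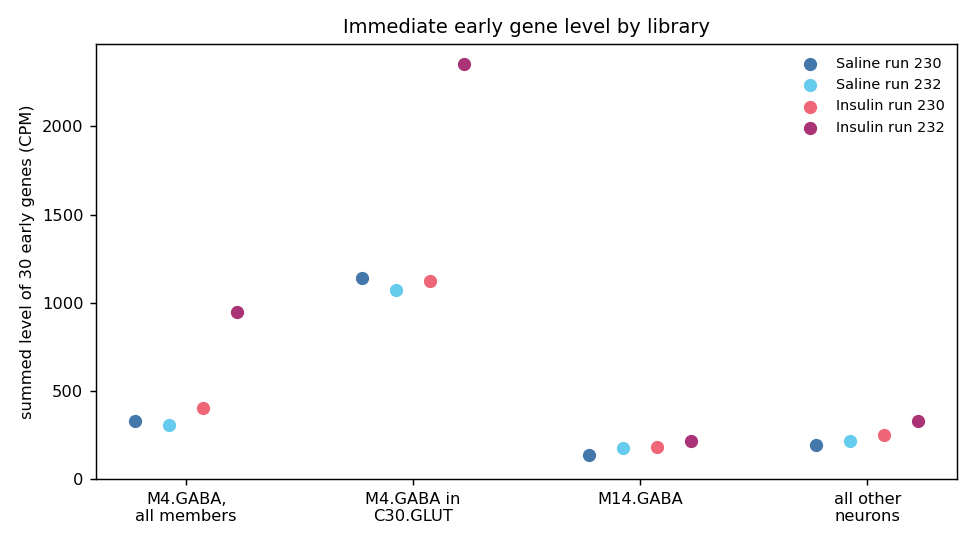
Each point is 1 library, with the summed level in CPM of 30 immediate early genes on a linear axis, for all M4.GABA members, for those in the conserved cluster C30.GLUT, for M14.GABA and for all other neurons. Insulin run 232 is highest in each set, at 947 CPM in M4.GABA and 330 CPM in the other neurons.

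In the other neurons the summed level was 195 and 215 CPM in the Saline and 253 and 330 CPM in the Insulin libraries. Relative to the other neurons of its library, M4.GABA was at a log2 ratio of 0.76 and 0.52 in Saline and 0.66 and 1.52 in Insulin, so that the groups overlapped (exact permutation p = 0.667, floor 0.33). A larger early gene difference in M4.GABA than in other neurons was thus carried by Insulin run 232 alone. In the C30.GLUT members the summed level was 1141 and 1074 CPM in Saline, and 1125 and 2355 CPM in Insulin, from 4 to 10 nuclei per library.

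Of the 30 early genes, 7 passed the filter on low counts, all 7 with fitted changes above 0 (median log2 1.17, against -0.01 over all 8063 genes), and 0 were called. Levels of Btg2, a gene that restrains cell division, were 25.9 and 23.5 CPM in the Saline and at 39.6 and 88.3 CPM in the Insulin libraries (log2 1.33, SE 0.41, edgeR adjusted p = 1.00). Junb, a subunit of the AP-1 transcription factor, was at 11.3 and 23.5 CPM against 23.5 and 113 CPM (log2 2.03, SE 0.65). Nr4a1, an orphan nuclear receptor gene, was at 28.2 and 11.8 CPM against 26.4 and 84.8 CPM (log2 1.34, SE 0.55). Insulin run 232 was high for each, while in Insulin run 230 Nr4a1 was within the Saline range. In the C30.GLUT members Junb was at 195 CPM against 38.8 over all members, Btg2 at 198 against 42.5 and Nr4a1 at 142 against 36.9. The part of the C30.GLUT share in these differences was not tested. Btg2, Sik1 and Per1 had groups that did not overlap, 3 of 7 against 15.1% of all genes. Per1 was at 14.7 and 9.80 CPM in the Saline and at 23.5 and 34.6 CPM in the Insulin libraries. It passed the filter only through the Insulin libraries, which favoured its direction in advance, so it adds no support to either count. The list median of 1.17 was the fitted value of Per1 itself, so that median adds no support either. Jund and Homer1 had the smallest fitted log2 changes, 0.40 and 0.35. Without Insulin run 232 the list held 10 genes past the filter in place of 7, with a median of 0.31. Btg2 was then at 0.67, Junb at 0.52 and Nr4a1 at 0.32.

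Fos, Arc, Npas4, Gem, Egr1 and Nr4a3 did not pass the filter and were added here after their values were seen. Fos was at 4.51 and 1.96 CPM in the Saline and at 4.398 and 41.6 CPM in the Insulin libraries, or 4, 1, 3 and 24 UMIs. Arc, whose protein acts at synapses, was at 4.51 and 3.92 CPM against 7.33 and 38.1 CPM. In both, 1 library held most of the UMIs. Npas4 was at 9.02 and 9.80 CPM against 10.3 and 39.8 CPM. Gem was at 13.5 and 5.88 CPM against 7.33 and 46.7 CPM, and Egr1 at 5.64 and 3.92 CPM against 2.93 and 12.1 CPM. Nr4a3 was at 15.8 and 3.92 CPM against 10.3 and 24.2 CPM. Within run 230, Gem, Egr1, Nr4a3 and, slightly, Fos were thus lower in Insulin than in Saline, and within run 232 they were higher.

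Of 16 genes of the later activity response, 9 passed the filter, all with fitted changes above 0 (median log2 0.72), 6 of them without overlap between the groups (against 15.1% of all genes upward) and 0 called. Gadd45g, at 10.2 and 11.8 CPM in the Saline and 20.5 and 67.5 CPM in the Insulin libraries, passed the filter only through the Insulin libraries. Its direction was thus favoured in advance, and it adds no support to these counts. Over all 8063 genes the median was -0.01 and 49.2% were above 0. Scg2, a granin of dense-core vesicles, was at 90.2 and 151 CPM in the Saline and at 170 and 282 CPM in the Insulin libraries (log2 0.94, SE 0.29). Both runs showed a like difference, 0.91 and 0.90 on the log2 CPM scale, although 36 of the 163 UMIs in Insulin run 232 came from 1 nucleus. Pcsk1, a prohormone convertase gene, was at 13.5 and 17.6 CPM against 33.7 and 43.3 CPM (log2 1.33, SE 0.42). Vgf was at 48.5 and 43.1 CPM against 79.2 and 88.3 CPM (log2 0.86, SE 0.27). In the C30.GLUT members, whose share was higher in both Insulin libraries, Scg2 was at 442 CPM against 164 over all members and Vgf at 283 against 64.0, and the part of that share in these differences was not tested. The median of the same list in the other neurons was 0.18.

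The upstream sequence of the 3 early genes with the smallest p is shown because cyclic AMP response elements, the sites bound by the activity-dependent factor CREB, are known in early gene promoters. Each run is the 250 bases before the RefSeq start of the gene (GRCm38.p6), 5′ to 3′ on the gene's strand, and capitals mark matches to TGACG on either strand (TGACG or CGTCA), overlapping matches joined.
Btg2, chr1:134079156-134079405, minus strand: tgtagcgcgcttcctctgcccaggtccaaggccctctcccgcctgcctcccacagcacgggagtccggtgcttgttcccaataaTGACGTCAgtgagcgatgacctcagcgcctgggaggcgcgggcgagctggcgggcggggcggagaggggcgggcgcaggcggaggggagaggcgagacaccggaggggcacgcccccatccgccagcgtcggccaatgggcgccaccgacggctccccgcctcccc
Junb, chr8:84978749-84978998, minus strand: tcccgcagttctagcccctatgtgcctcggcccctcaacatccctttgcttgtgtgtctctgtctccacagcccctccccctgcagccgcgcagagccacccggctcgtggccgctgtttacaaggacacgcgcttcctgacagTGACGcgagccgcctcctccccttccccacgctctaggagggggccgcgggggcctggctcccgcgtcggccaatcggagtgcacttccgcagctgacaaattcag
Nr4a1, chr15:101266596-101266845, plus strand: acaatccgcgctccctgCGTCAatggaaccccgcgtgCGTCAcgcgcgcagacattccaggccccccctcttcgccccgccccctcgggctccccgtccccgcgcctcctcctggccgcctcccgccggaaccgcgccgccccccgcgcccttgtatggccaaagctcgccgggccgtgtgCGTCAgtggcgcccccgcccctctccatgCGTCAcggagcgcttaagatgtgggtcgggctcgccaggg
Btg2 holds the full palindrome TGACGTCA, which 1.55% of 32851 promoter windows hold, Junb has 1 match to TGACG and Nr4a1 has 4. TGACG occurs on either strand in 17.8% of all windows. Of 24 early genes with a window, 18 had a match to TGACG and 3 to TGACGTCA in at least 1 of their windows. Some of these genes have several windows, so the counts of genes and the shares of windows differ in unit. A match describes the letters only.

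The early gene UMIs were spread unevenly over nuclei. At 3000 UMIs per nucleus, the share of members with any early gene UMI was 50.5% in Saline run 230 (95% Clopper-Pearson interval 39.97 to 61.1%), 47.8% in Saline run 232 (32.9 to 63.1%), 66.7% in Insulin run 230 (53.3 to 78.3%) and 74.6% in Insulin run 232 (62.1 to 84.7%). Both Insulin libraries were above both Saline libraries, at means of 70.6 ± 5.61% and 49.2 ± 1.92% (SD, n = 2 each; exact permutation p = 0.33, the smallest possible); 1 nucleus of Insulin run 232 was too shallow. Without thinning, 70 of 93, 39 of 46, 54 of 60 and 58 of 64 members had one, in the same order. At the same depth M14.GABA was at 35.9, 38.5, 36.8 and 46.2%. Oligodendrocytes, a type not expected to share a neuronal response, were at 47.6, 54.3, 50.7 and 73.0%, although 115 to 221 of their nuclei per library reached 3000 UMIs and their median was 2184 to 2522 UMIs. The oligodendrocyte share was above that of M14.GABA and of the other neurons (41.1, 45.7, 47.5 and 52.8%) in every library, and within the interval of the member share in all but Insulin run 230, where it was lower. No difference in expression is read from the member shares alone.

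Nuclei with 10 or more early gene UMIs numbered 34, of which 23 were from Insulin libraries and 17 from Insulin run 232. Of the 34, 18 were among the 31 members in C30.GLUT. In Insulin run 232 the 10 nuclei with most early gene UMIs held 60.7% of that library's 547, and the highest had 55 of its 6682 UMIs in early genes. Without this nucleus the median log2 change over the list was 1.15, again the value of Per1. Median early gene UMIs per nucleus were 2 in both Saline and 3 in both Insulin libraries.

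**Figure D4:**
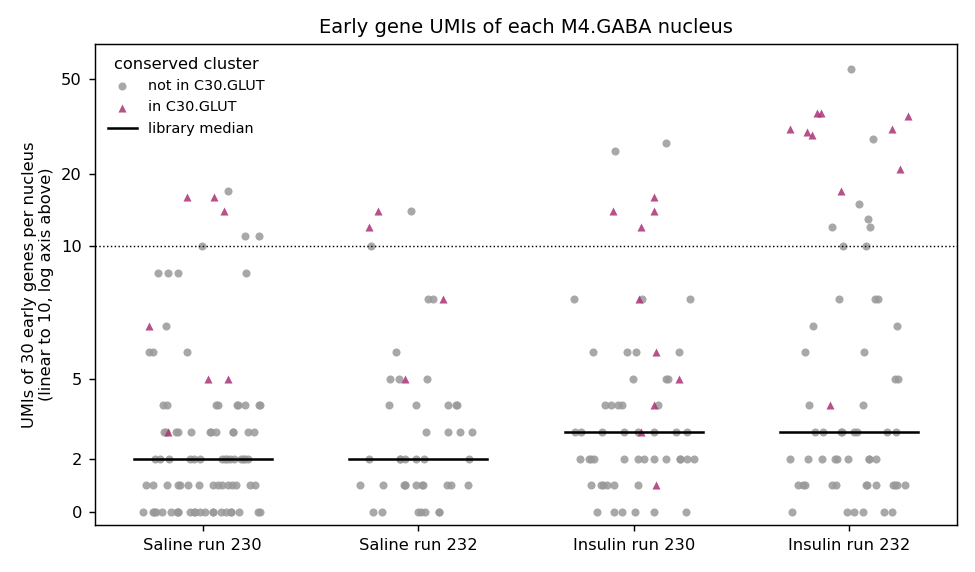
Each point is 1 M4.GABA nucleus, placed by library and by its UMIs of 30 early genes (linear to 10, log axis above), with triangles for the members in C30.GLUT, circles for those not in it, and the black line the library median of 2 or 3. Of the 17 nuclei at or above the dotted line of 10 in Insulin run 232, 9 are C30.GLUT members.

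No gene of any other list was called. Of 24 insulin signalling genes tested, 13 had fitted changes above 0 and 11 below (median log2 0.04), and 0 were called. Irs2, which transcription factors of the FoxO family induce when insulin is low, was at 36.1 and 41.1 CPM in the Saline and at 46.9 and 67.5 CPM in the Insulin libraries (log2 0.57, SE 0.32, edgeR adjusted p = 1.00). Of 5 FoxO target genes tested, 4 were below 0 (median -0.06), and of 33 hormone, peptide and monoamine receptor genes 19 were below 0 (median -0.11), with 10 lower in both Insulin libraries against 16.7% of all genes. Tacr1 was lower in both Insulin libraries at log2 -0.48 (SE 0.20) without passing. The 3 GABA identity genes had fitted changes of 0.33 to 0.65 (median 0.44), and their groups overlapped. Of 6 glucocorticoid-responsive genes 4 were above 0 (median 0.28, against 0.30 in the other neurons), and both microglia markers tested were below 0 (median -0.78, against -0.44).

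The last comparison was whether the Insulin against Saline change differed between M4.GABA and all other neurons of the same libraries. In the model with the library as a term, 8 of 8063 genes (0.0992%) passed edgeR's quasi-likelihood test, with adjusted p-values of 0.0348 to 0.0413. The filter on low counts used the M4.GABA sums alone. Pla2g6 and 9530026P05Rik passed it only through their Insulin libraries, so a positive difference was favoured in advance for them. The change was more positive in M4.GABA for Pla2g6, Fam19a2, Ubash3b, Mapk4, Gm32036, 9530026P05Rik and Igsf9b, and more negative for Necab1. The other neurons pool populations that need not move alike. In M36.Sst/Pnoc, fitted alone, the log2 change was -1.09 for Necab1, 0.92 for Fam19a2 and 0.64 for Mapk4, each of the sign seen in M4.GABA, and in M14.GABA that of Pla2g6 was 0.96. None of these passed (edgeR adjusted p = 1.00 for each), and the difference of M4.GABA from these single populations was not tested.

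Pla2g6, a calcium-independent phospholipase gene (chromosome 15, 79286228 to 79328390), was at 11.3 and 11.8 CPM in the Saline and at 44.0 and 57.1 CPM in the Insulin libraries of M4.GABA, and its change in the other neurons was -0.07 (difference log2 2.17, SE 0.43). Of its 33 UMIs in Insulin run 232, 17 came from 1 nucleus, and only 6 nuclei there had any. Fam19a2, a secreted protein gene, was at 19.2 and 39.2 CPM against 76.2 CPM in both Insulin libraries (difference 1.59, SE 0.32), and 1 nucleus of Insulin run 230 held 24 of 52 UMIs. Its difference was 0.81 without Saline run 230 and 0.55 without the high-UMI nuclei. Mapk4, an atypical MAP kinase gene, had 45 to 125 UMIs per library in 23 to 46 nuclei and was at 107 and 88.2 CPM against 172 and 216 CPM (difference 0.96, SE 0.20). Ubash3b, a phosphatase gene, was at 44.0 and 41.1 CPM against 77.7 and 126 CPM (difference 1.37, SE 0.28; 0.84 without Insulin run 232). Igsf9b, an adhesion protein gene of inhibitory synapses, was at 34.97 and 45.1 CPM against 73.3 and 106 CPM (difference 1.25, SE 0.27). Necab1, a calcium-binding protein gene, was at 176 and 112 CPM against 98.2 and 41.6 CPM, while the fitted change in the other neurons was 0.18 (difference -1.17, SE 0.25). That difference was -0.71 without Insulin run 232 and -1.94 without Insulin run 230, and in M7.Ust the change of Necab1 was 1.02. For Gm32036 the groups overlapped and the difference was 0.75 without Insulin run 230, and 9530026P05Rik rests on 0 to 18 UMIs per library.

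These 8 calls were lost with RLE scaling, with library size alone, without nuclei of more than 2 times the library's median UMIs, and when all populations entered the model separately, each of which gave 0. No early gene was among the 8: the difference was 0.67 (SE 0.48) for Junb and 0.36 (SE 0.37) for Btg2, with edgeR adjusted p-values of 0.97 and 0.99.

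**Figure D5:**
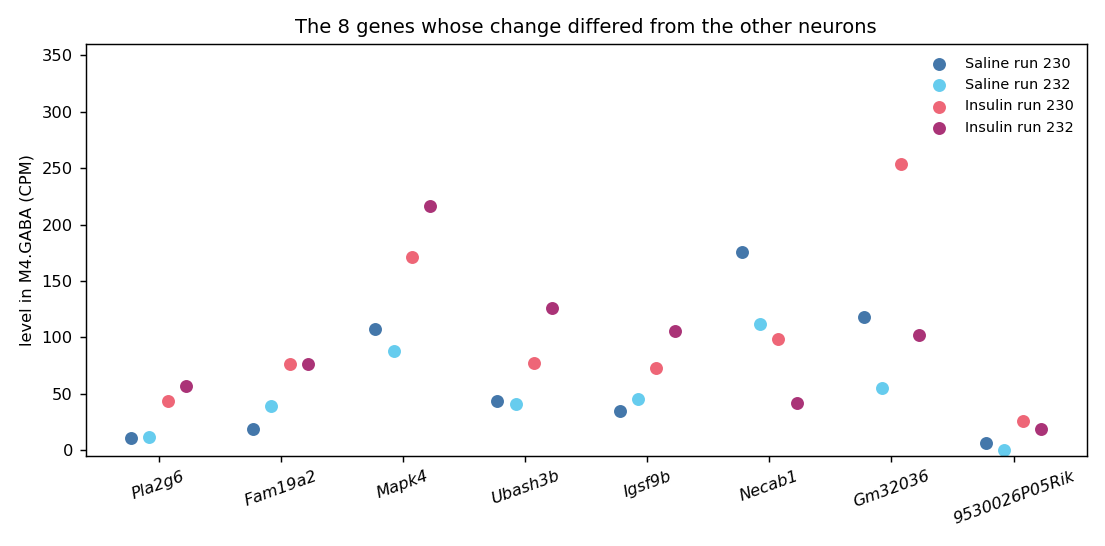
Each point gives the level in CPM of 1 gene in M4.GABA in 1 library, for the 8 genes whose change passed the test of a difference from the other neurons. The Saline and Insulin points do not overlap for 7 of them, and those of Gm32036 do.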

How the data were processed

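Values are raw UMI counts, which the authors deposited as 1 matrix. The submitters' processing notes name Cell Ranger and GRCm38; version, annotation and doublet treatment of these nuclei are not given in the sources used here. Populations, conserved clusters, treatment and run come from the authors' deposited table, whose library names match no replicate number. Of 36534 nuclei listed, 11 had no matching barcode. Counts were summed per library over members. The library was the unit, and whether it held 1 mouse or a pool is not stated, so p-values measure only the spread between libraries. Tests used edgeR 4.0.16 (TMM, filterByExpr with minimum count 10, quasi-likelihood, threshold 0.05, 2 residual degrees of freedom). DESeq2 1.42.0 and limma 3.58.1 were alternatives, and the fits were tested on simulated data. Within-run log2 values used a prior count of 0.5. Libraries of a run deviated together (correlation 0.357 over 8063 genes), so the run served as a block in an alternative. Named genes were the 15 and 8 largest differences from other populations, the 8 smallest p per direction with separate groups, every called gene, and list members of highest level or rank. Members and lists were chosen with earlier results of these data known. Gene positions are from GENCODE M21, and 73 of 73 named genes matched. Some items are not reported here.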

Additional observations from a re-analysis of the deposited data

Results flagged for a closer look

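The change between Insulin and Saline differed between M4.GABA and the other neurons for 8 genes, by the interaction term of edgeR's quasi-likelihood test (adjusted p of 0.0348 to 0.0413). The differences on the log2 scale, M4.GABA minus other neurons, were 2.17 for Pla2g6, 1.59 for Fam19a2, 1.37 for Ubash3b, 0.96 for Mapk4, 1.18 for Gm32036, 2.69 for 9530026P05Rik, 1.25 for Igsf9b and -1.17 for Necab1. Pla2g6 and 9530026P05Rik passed the filter on low counts only through their Insulin libraries. The number called was 0 with RLE scaling, with library size alone, without high-UMI nuclei and with all populations entered separately.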

How the results depend on the processing

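The count of 0 genes called between treatments was also 0 with RLE scaling, library size alone, a mean of at least 10 CPM, DESeq2, limma-voom, without high-UMI nuclei and, as an alternative added after seeing the data, without the nucleus with most early gene UMIs. It was 0 with the replicate block (smallest adjusted p 0.221), 4 without a filter, and 1 to 70 when 1 library was left out. The 8 differences from other neurons became 16 without a filter, 0 with RLE scaling, library size alone, no high-UMI nuclei or all populations entered separately, and 4 to 34 when 1 library was left out; the cause was not tested. The early gene median was 1.14 with the replicate block, again the value of Per1. When 1 library was left out it was 0.31 to 1.98, but over 10 to 18 list genes in place of 7. With 1 library left in a group, a gene could pass the filter through any 1 library alone, which can favour its direction. These medians are thus not those of 1 fixed set of genes. The difference in the M4.GABA share of neurons was -0.0888 percentage points, but 0.181 within run 232, and -0.387 to 0.210 when 1 library was left out. At 5 CPM or more, 443 genes were higher and 1139 lower than in other populations, since more genes are counted; leaving out 1 library gave 277 to 289 and 509 to 530. The difference in the share of nuclei with an early gene UMI was 21.5 percentage points at 3000 UMIs, 10.3 without thinning, 16.1 at 2000, and 17.5 to 25.4 when 1 library was left out. Jund was at -0.21 to 1.17 when 1 library was left out, the lowest without Saline run 230, and Insr at -0.47 to 0.0091, above 0 without Saline run 230 and, at 0.0070, without Insulin run 232. With 46 to 93 nuclei per library, genes of few UMIs rest on single nuclei.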
